A study of Mus musculus with 6 samples.

Results

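The nuclear-encoded subunits of the oxidative phosphorylation complexes were followed in cardiomyocytes of mice given an adeno-associated virus (AAV) vector that codes for a transcription factor of the unfolded protein response. Subunits were taken by gene symbol (the Nduf, Sdh, Uqcr, Cyc1, Cox and Atp5 stems of the structural subunits). In all, 85 of the 23337 genes in the count table matched. The symbol Cox4nb is a synonym of Emc8 in RefSeq, which codes for a component of the endoplasmic reticulum membrane complex, and was set apart, which left 84 subunits. By symbol they fell into 38 for complex I, 4 for complex II, 9 for complex III, 18 for complex IV and 15 for ATP synthase, and 81 of the 84 had enough counts to be tested. Ndufa4 and its relative Ndufa4l2 are counted here with complex I by name, although the Ndufa4 protein is now known as a subunit of complex IV. No symbol in the count table matched the usual names of subunits encoded by mitochondrial DNA, so those subunits could not be described.

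The respiratory chain sits in the inner mitochondrial membrane. Complex I (NADH dehydrogenase) and complex II (succinate dehydrogenase) pass electrons to ubiquinone, complex III hands them to cytochrome c, and complex IV (cytochrome c oxidase) transfers them to oxygen. Complexes I, III and IV pump protons while they do so, and ATP synthase uses the proton gradient to make ATP. Heart muscle depends on this route for nearly all of its ATP, and several complex IV subunits exist in a heart and muscle isoform and in an isoform found in most tissues.

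The 6 libraries fell into groups of 2. Wild-type mice were injected on postnatal day 1 with AAV-ATF6N, AAV-XBP1S or AAV-GFP, and cardiomyocytes were isolated by Langendorff perfusion at 4 weeks of age and purified by fluorescence-activated sorting. XBP1S is the spliced, active form of the transcription factor XBP1, ATF6N the name the labels give to the ATF6 construct, and GFP the control protein, so every mouse had received a virus. Polyadenylated RNA was sequenced after SMART-Seq v4 amplification and Nextera XT library construction. The labels used here do not give the promoter or dose of the vectors, or the sex and number of mice behind a library, so the p-values measure only the spread between these libraries, which may be partly technical.

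Total counts were 83930718 and 67702482 in the AAV-ATF6N libraries, 85298584 and 71571677 in the AAV-XBP1S libraries, and 112049342 and 72855725 in the AAV-GFP libraries (replicate 1, then 2, here and throughout). AAV-GFP replicate 1 stood apart: on the first principal component, which carried 43.9% of the variance, it scored 99.6, and the other 5 libraries scored between -46.0 and 14.2. Per doubling of gene length, expression relative to the mean of the libraries changed by 0.14 and 0.11 log2 units in the AAV-ATF6N libraries, by -0.13 in AAV-XBP1S replicate 1 and 0.11 in replicate 2, and by -0.28 in AAV-GFP replicate 1 and 0.05 in replicate 2. Short transcripts were therefore relatively high in AAV-GFP replicate 1 and, to a smaller degree, in AAV-XBP1S replicate 1. Rn45s, the ribosomal RNA precursor, took 0.337% of counts in AAV-GFP replicate 1, 0.130% in AAV-XBP1S replicate 1 and at most 0.0416% in the other 4 libraries. Eif2s3y, a Y-linked gene, had 3595 and 2824 counts in AAV-ATF6N, 0 and 0 counts in AAV-XBP1S, and 1629 and 979 counts in AAV-GFP. Xist, expressed from the inactive X chromosome, had 0.197 and 0.0919 CPM in AAV-ATF6N, 43.1 and 20.2 CPM in AAV-XBP1S, and 24.6 and 7.88 CPM in AAV-GFP, so sex and treatment cannot be told apart. Atf6 had 162 and 158 CPM in AAV-ATF6N against 44.9 and 70.6 CPM in AAV-GFP, and Xbp1 had 160 and 166 CPM in AAV-XBP1S against 98.0 and 115 CPM in AAV-GFP. Each gene was also above AAV-GFP with the other factor's vector. Atf6 had 77.0 and 111 CPM in AAV-XBP1S, and Xbp1 had 145 and 152 CPM in AAV-ATF6N. Neither gene passed the test with its own vector against AAV-GFP: the edgeR quasi-likelihood p, adjusted by Benjamini-Hochberg, was 0.126 for Atf6 and 0.307 for Xbp1. CPM here is the share of a library's counts, scaled by edgeR's TMM factors. TPM takes gene length into account, is not scaled by the TMM factors, and is used wherever genes are compared with each other. All 10 cardiomyocyte markers had counts in every library, summing to 127723 and 126944 CPM in AAV-ATF6N, 93417 and 94744 CPM in AAV-XBP1S, and 118444 and 104792 CPM in AAV-GFP.

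Subunit transcripts were among the abundant messages of these cells. Averaged over the 6 libraries, 62 of the 84 subunits exceeded 1000 TPM and 77 exceeded 100 TPM, with a median of 2023 TPM. The 84 subunits together took 8.84% and 9.09% of all counts in AAV-ATF6N libraries, 11.6% and 9.12% in AAV-XBP1S libraries, and 14.0% and 9.81% in AAV-GFP libraries. The highest shares belonged to AAV-GFP replicate 1 and AAV-XBP1S replicate 1, the libraries in which short transcripts were high. Atp5b, the catalytic beta subunit of ATP synthase, had the highest mean level of all subunits: 12912 and 12701 TPM in AAV-ATF6N, 11386 and 12324 TPM in AAV-XBP1S, and 10565 and 13850 TPM in AAV-GFP. Its groups overlapped. Cox4i1, the ubiquitous form of complex IV subunit 4, came next with a mean of 8772 TPM.

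Summed over its subunits, complex I had 56631 and 57908 TPM in AAV-ATF6N, 71579 and 59100 TPM in AAV-XBP1S, and 82024 and 58874 TPM in AAV-GFP. Complex IV had 41826 and 43116 TPM in AAV-ATF6N, 55316 and 42347 TPM in AAV-XBP1S, and 70504 and 42968 TPM in AAV-GFP. For both complexes replicate 2 of AAV-XBP1S and of AAV-GFP lay near the AAV-ATF6N libraries and replicate 1 lay above. ATP synthase varied less, with 48981 and 49092 TPM in AAV-ATF6N, 52708 and 48707 TPM in AAV-XBP1S, and 58483 and 50093 TPM in AAV-GFP. The sum of complex II ran the other way in TPM. It was 9230 and 9436 TPM in AAV-ATF6N, 9534 and 9481 TPM in AAV-XBP1S, and 7915 and 9171 TPM in AAV-GFP. The low sum of AAV-GFP replicate 1 rested on a single gene, Sdha, whose levels are given below. In CPM, 3 of the 4 complex II subunits were higher in AAV-GFP replicate 1 than in replicate 2. AAV-GFP replicate 1 was the lowest library for complex II and the highest for the other complexes in summed TPM. In summed CPM it was the highest for complex II too, with 8309 CPM against 6891 to 8028 CPM in the other 5 libraries.

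**Figure D1:**
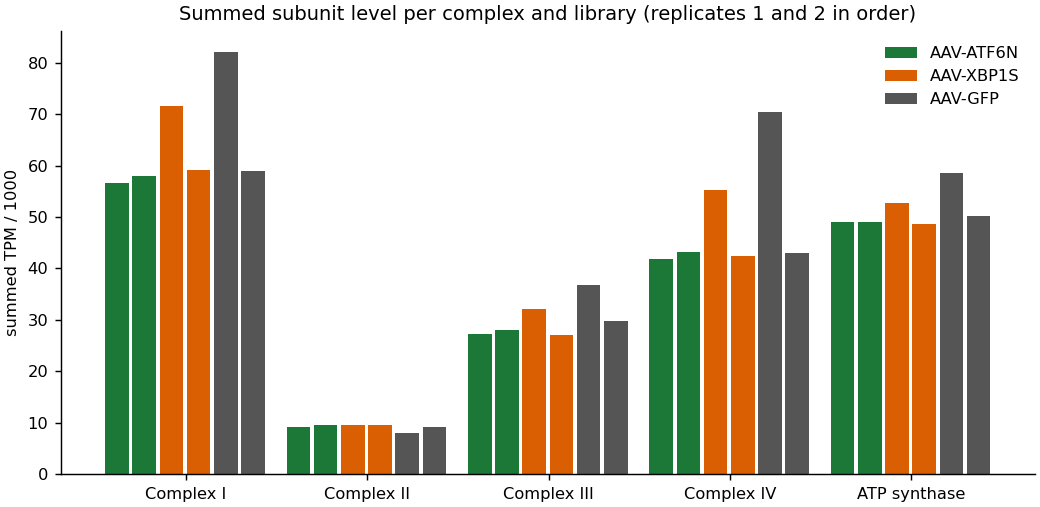
Summed TPM of the subunits of each complex, divided by 1000 (vertical axis), in each library, with 1 bar per library and replicates 1 and 2 side by side. AAV-GFP replicate 1 is the highest bar for complexes I, III, IV and ATP synthase and the lowest for complex II.

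In AAV-XBP1S and AAV-GFP the replicates differed by about as much as the groups did. In AAV-ATF6N, 8 of 81 subunits had a higher CPM in replicate 1 than in replicate 2, with a median log2 ratio of -0.06. In AAV-XBP1S, 78 of 81 were higher in replicate 1, with a median log2 ratio of 0.61 (1.53-fold). In AAV-GFP, 79 of 81 were higher in replicate 1, with a median of 1.09 (2.12-fold). Over all genes tested the corresponding medians were 0.00 in each group. The subunits thus moved together between replicates, by more in AAV-GFP than the largest median difference between groups. By complex, the AAV-GFP replicates differed most in complex IV (median log2 ratio 1.16, range 0.77 to 1.52) and least in complex II (median 0.43, range -0.77 to 0.61).

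**Figure D2:**
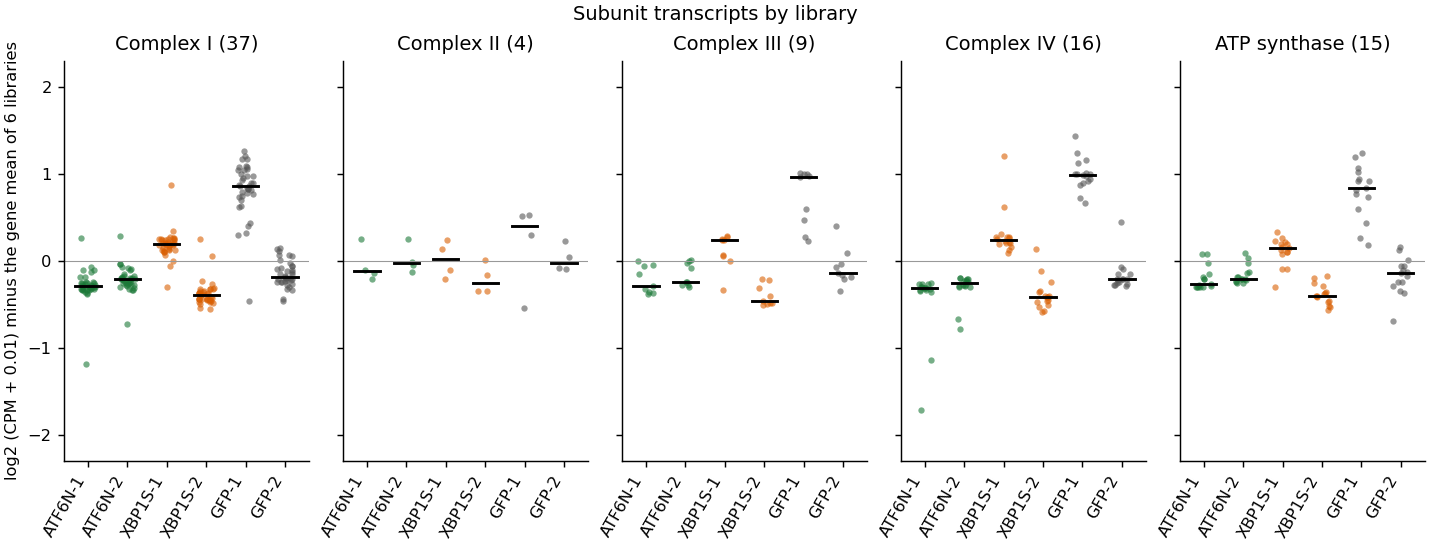
Expression of each tested subunit in each library as log2 CPM minus the gene's mean over the 6 libraries (vertical axis), by complex, with the number of subunits in brackets. Points are genes and bars are medians. The median of AAV-GFP replicate 1 is the highest in every panel, that of AAV-XBP1S replicate 1 follows, and the AAV-ATF6N medians lie close together.

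Most subunits are short genes. Tested subunits had a median length of 679 bases (292 to 2927), against 2826 bases for all genes tested, and 45 of 81 (55.6%) were shorter than 750 bases, against 3.80% of all genes tested. The longest subunits, Ndufs1 and Sdha, ran the other way between replicates. They were exceptions. In CPM, 79 of 81 subunits, other long ones among them, were higher in AAV-GFP replicate 1 than in replicate 2. Ndufs1, the largest iron-sulfur subunit of complex I, had 978 and 978 TPM in AAV-ATF6N, 615 and 967 TPM in AAV-XBP1S, and 397 and 857 TPM in AAV-GFP. Sdha, the flavoprotein of complex II, had 2576 and 2532 TPM in AAV-ATF6N, 1737 and 2497 TPM in AAV-XBP1S, and 992 and 2395 TPM in AAV-GFP. In both genes replicate 1 of AAV-XBP1S and of AAV-GFP was the lower library. Cox6c, a short subunit of complex IV, had 4175 and 4235 TPM in AAV-ATF6N, 5325 and 4396 TPM in AAV-XBP1S, and 8337 and 4118 TPM in AAV-GFP. Here the same replicates were the higher ones.

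With AAV-ATF6N, the subunits as a list lay below AAV-GFP, and most of that difference was gone without AAV-GFP replicate 1. The median log2 fold change was -0.74 over 81 subunits, with 79 below 0, against -0.02 over all genes tested. None of the 81 passed edgeR's quasi-likelihood test at an adjusted p of 0.05 in either direction, where 0.35% of all genes tested were called higher and 0.165% lower. At an unadjusted p under 0.05, 4 were lower (Ndufa4l2, Cox4i2, Cox6b2 and Uqcrc1) and 0 higher, beside 6.54% and 6.92% of all genes tested, and DESeq2 called 1 (Ndufa4l2) lower and 0 higher (against 1.58% and 2.34% of all genes). Medians by complex were -0.70 for complex I, -0.28 for complex II, -0.75 for complex III, -0.80 for complex IV and -0.63 for ATP synthase. In 52 of 81 subunits both AAV-ATF6N libraries lay below both AAV-GFP libraries in CPM, as did 26.7% of all genes tested, and in 2 they lay above, as did 27.9%. Without AAV-GFP replicate 1 the median was -0.07, against 0.01 over all genes, with 58 of 81 below 0 and again 0 called in either direction (all genes 0.471% higher and 0.239% lower). Medians by complex then lay between -0.14 (complex III) and -0.04 (complex II). Leaving out a replicate leaves its group with 1 library, which is then assumed to vary as the other groups do. Without AAV-GFP replicate 2, which leaves the library that stands apart as the only control, with the same assumption on its spread, 61 subunits were called lower and 1, Sdha, higher, against 9.86% and 10.1% of all genes.

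With AAV-XBP1S the list also lay below AAV-GFP, and leaving out AAV-GFP replicate 1 turned the sign of its median. The median log2 fold change was -0.53, with 77 of 81 below 0, against -0.01 over all genes tested. Again 0 were called higher or lower by edgeR's quasi-likelihood test, beside 0.178% higher and 0.137% lower among all genes. At an unadjusted p under 0.05, 3 were lower (Uqcrc1, Atp5a1 and Ndufv1) and 0 higher, beside 5.21% and 6.37% of all genes tested, and DESeq2 called 1 (Uqcrc1) lower and 0 higher (all genes 1.32% and 1.95%). Medians by complex were -0.52 for complex I, -0.20 for complex II, -0.57 for complex III, -0.58 for complex IV and -0.53 for ATP synthase. Groups did not overlap for 8 subunits, all lower in AAV-XBP1S, against 16.8% of all genes lower and 19.1% higher. Without AAV-GFP replicate 1 the median was 0.11, against 0.04 over all genes, with 25 of 81 below 0 and 0 called (all genes 0.312% higher and 0.265% lower). Medians were then positive in complexes I, III and IV and in ATP synthase (0.07 to 0.17) and -0.10 in complex II. Without AAV-GFP replicate 2, 4 were called lower (Uqcrc1, Ndufa5, Ndufc1 and Cox6c) and 0 higher, against 0.681% and 1.43% of all genes. The comparisons of AAV-ATF6N and of AAV-XBP1S share the AAV-GFP libraries, so their like medians are not separate observations.

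Between AAV-ATF6N and AAV-XBP1S the list differed little. The median log2 fold change was -0.17 over 81 subunits, with 67 below 0, against -0.01 over all genes tested, and 0 were called in either direction by edgeR's quasi-likelihood test (0.171% of all genes higher, 0.0548% lower). At an unadjusted p under 0.05, 2 were lower and 0 higher, beside 7.55% and 5.69% of all genes tested, and DESeq2 called those 2, Ndufa4l2 and Cox4i2, lower and 0 higher (all genes 3.42% lower and 2.09% higher). AAV-ATF6N lay wholly below AAV-XBP1S in 3 subunits and wholly above it in 7, against 26.8% and 30.1% of all genes. The small median also rested on AAV-XBP1S replicate 1: without that library it was 0.14.

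Other short genes gave medians of the same sign as the short subunits. Among the 45 subunits under 750 bases the median log2 fold change was -0.80 for AAV-ATF6N against AAV-GFP, and -0.69 among all genes of that class. For AAV-XBP1S against AAV-GFP the medians were -0.60 among these subunits and -0.40 among all genes of the class. For AAV-ATF6N against AAV-XBP1S they were -0.19 (subunits) and -0.29 (all genes). Without AAV-GFP replicate 1 they were -0.05 (subunits) and -0.03 (all genes) for AAV-ATF6N against AAV-GFP, and 0.14 (subunits) and 0.30 (all genes) for AAV-XBP1S against AAV-GFP. From 1500 to under 3000 bases the subunits stood lower than their class in AAV-XBP1S: the 12 subunits had a median of -0.40 against -0.04 for all genes with 6 libraries, and -0.27 against 0.02 without AAV-GFP replicate 1. For AAV-ATF6N against AAV-GFP the same class gave -0.37 against -0.10 with 6 libraries, and -0.06 against -0.05 without that replicate. Across the 81 subunits, log2 fold change was higher in longer genes in the comparisons with all 6 libraries (Spearman's rho 0.72 for AAV-ATF6N and 0.57 for AAV-XBP1S against AAV-GFP, 0.50 for AAV-ATF6N against AAV-XBP1S), and without AAV-GFP replicate 1 the rho of the comparisons with AAV-GFP was -0.18 and -0.53. These coefficients describe 81 genes measured in the same libraries and carry no test.

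**Figure D3:**
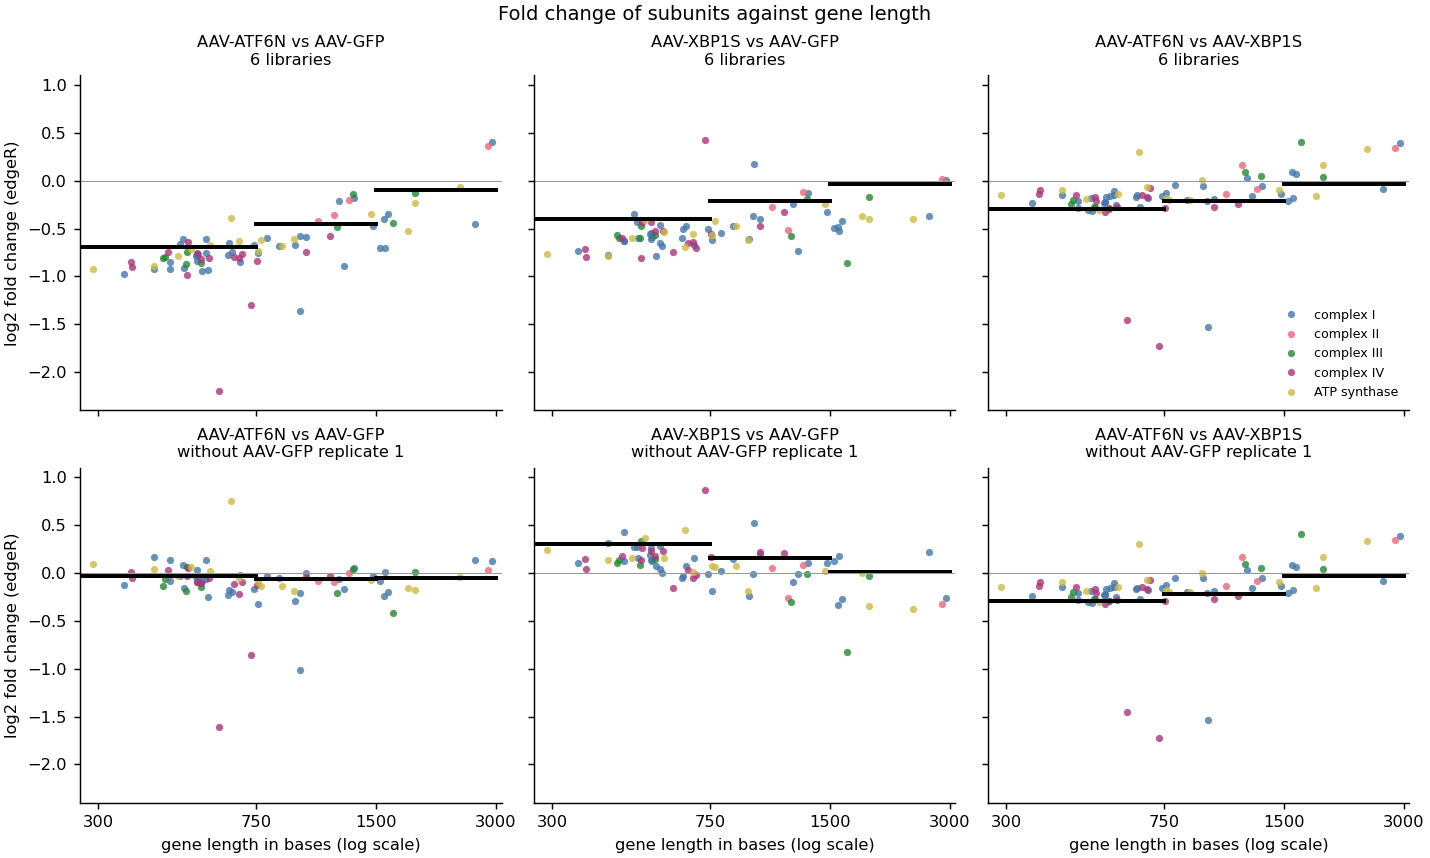
log2 fold change of each tested subunit (vertical axis) against gene length in bases (horizontal log axis), coloured by complex, for the 3 comparisons with all 6 libraries (top) and without AAV-GFP replicate 1 (bottom). Black bars are medians of all genes tested under 750, from 750 to under 1500 and from 1500 to under 3000 bases. Subunits under 750 bases lie below 0 in the top left and top middle panels, apart from Cox4i2 in the middle one, and mostly around or above 0 in the panels under them, where Cox6b2 and Cox4i2 are the lowest in the left one. Ndufa4l2 at -1.53 and Cox4i2 at -1.72 stand apart in both right panels, and Cox6b2 at -1.46 lies near them in the top right one.

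Further gene lists, some of them related to the subunits, were described in the same way. Their median lengths were 717.5 bases (cytosolic ribosomal proteins), 1053 (mitochondrial ribosomal proteins), 1673 (assembly factors), 1693 (electron carriers) and 3787 (transcriptional regulators). For 82 cytosolic ribosomal protein genes the median log2 fold change was -0.92 for AAV-ATF6N and -0.46 for AAV-XBP1S against AAV-GFP, and -0.06 and 0.36 without AAV-GFP replicate 1. For 75 mitochondrial ribosomal protein genes it was -0.51 and -0.41, and -0.07 and 0.03 without that replicate. None of these genes was called in any of those fits. The assembly factors, which build the complexes without staying in them, had medians of -0.34 and -0.26 over 45 tested genes, and 0.04 and -0.01 without AAV-GFP replicate 1. The 17 electron carrier, ubiquinone synthesis and adenine nucleotide transport genes had medians of -0.31 and -0.36, and -0.17 and -0.24 without it. Again none was called in those fits. Among 10 transcriptional regulators of the subunit genes the medians were 0.04 and -0.19, and 0.07 and -0.23 without AAV-GFP replicate 1. Among them Ppargc1a, a coactivator of mitochondrial genes, had a log2 fold change of 1.26 ± 0.16 (SE) in AAV-ATF6N against AAV-XBP1S without AAV-GFP replicate 1. With all 6 libraries it was not called in the main edgeR fit, and it was called higher once gene length was taken into account.

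Because length moved with the libraries, the comparisons were also fitted with an offset per gene and library that removes a smooth trend of expression on length. The offset was estimated from these same counts and then held fixed, so SEs and p-values of such fits leave out its own uncertainty. With it the subunit medians came to -0.08 for AAV-ATF6N against AAV-GFP, -0.22 for AAV-XBP1S against AAV-GFP, and 0.14 for AAV-ATF6N against AAV-XBP1S. With the offset and without AAV-GFP replicate 1 they were -0.02, -0.17 and 0.14. In AAV-ATF6N against AAV-GFP no subunit was called under either fit (all genes 0.905% higher and 0.631% lower with the offset, 1.06% and 0.796% with the offset and without the replicate). In AAV-XBP1S against AAV-GFP the offset gave 1 subunit lower (1.12% of all genes) and 0 higher (0.857%), and with the replicate left out as well, so that AAV-GFP was 1 library assumed to vary as the other groups do, 5 lower (2.39% of all genes) and 0 higher (1.36%). In AAV-ATF6N against AAV-XBP1S the offset gave 1 higher and 2 lower (all genes 1.76% and 2.39%), and 10 higher and 2 lower with the replicate also left out (all genes 6.28% and 6.1%). The subunits lower in AAV-XBP1S were Uqcrc1, Cyc1, Ndufv1, Atp5b and Atp5a1. The 10 higher in AAV-ATF6N than in AAV-XBP1S were these same 5 and Sdha, Sdhc, Uqcrfs1, Ndufa10 and Atp5g3, with log2 fold changes of 0.24 (Atp5g3) to 0.55 (Uqcrc1). Both comparisons share the AAV-XBP1S libraries. Genes of the related lists were called with the offset as well. Ppargc1a was higher in AAV-ATF6N than in AAV-XBP1S, and Ppargc1a and Esrra, a nuclear receptor that acts with it, were lower in AAV-XBP1S than in AAV-GFP, with all 6 libraries and without AAV-GFP replicate 1. Slc25a4, the adenine nucleotide translocator of heart and muscle, was lower in AAV-ATF6N and in AAV-XBP1S than in AAV-GFP and higher in AAV-ATF6N than in AAV-XBP1S under both of these fits, and Etfb, a subunit of the electron transfer flavoprotein, was lower in AAV-XBP1S than in AAV-GFP under both. With the offset and without AAV-GFP replicate 1, Ecsit, an assembly factor of complex I, and Coq9, of ubiquinone synthesis, were also lower in AAV-XBP1S than in AAV-GFP, and Coq9 and the coactivator Ppargc1b were higher in AAV-ATF6N than in AAV-XBP1S. Of the cytosolic ribosomal proteins, Rpl3l, the muscle form of its protein, was lower in AAV-XBP1S than in AAV-GFP under both fits. With the offset and without AAV-GFP replicate 1, Mrpl37, a mitochondrial ribosomal protein, was lower in AAV-XBP1S than in AAV-GFP too. In AAV-ATF6N against AAV-XBP1S, Mrpl44 was then called higher, and Rpl3l, Rplp0 and Rps4y2 were called, not all in the same direction.

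Uqcrc1, a core protein of complex III, was lowest in both AAV-XBP1S libraries. It had 5140 and 4985 TPM in AAV-ATF6N, 3791 and 4138 TPM in AAV-XBP1S, and 4771 and 6457 TPM in AAV-GFP. It had 4419 and 4371 CPM in AAV-ATF6N, 3509 and 3112 CPM in AAV-XBP1S, and 6121 and 5858 CPM in AAV-GFP. Both AAV-XBP1S libraries lay below the other 4 on either scale, whereas AAV-ATF6N lay below AAV-GFP in CPM and overlapped it in TPM. Against AAV-GFP the log2 fold change in AAV-XBP1S was -0.86 ± 0.17 (SE), with an edgeR quasi-likelihood adjusted p of 0.148. It was -0.83 ± 0.16 without AAV-GFP replicate 1 (edgeR adjusted p = 0.0971), so the size did not depend on that library. The test was passed with DESeq2 (-0.85, adjusted p = 0.0090), with the length offset (-0.77 ± 0.09, edgeR adjusted p = 0.0201) and with the offset and without AAV-GFP replicate 1 (-0.89 ± 0.06, edgeR adjusted p = 0.0029). In AAV-ATF6N it was 0.41 ± 0.17 above AAV-XBP1S (edgeR adjusted p = 0.378), and 0.56 ± 0.09 with the offset (edgeR adjusted p = 0.0351). In AAV-ATF6N against AAV-GFP the value was -0.45 ± 0.17 (edgeR adjusted p = 0.355).

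**Figure D4:**
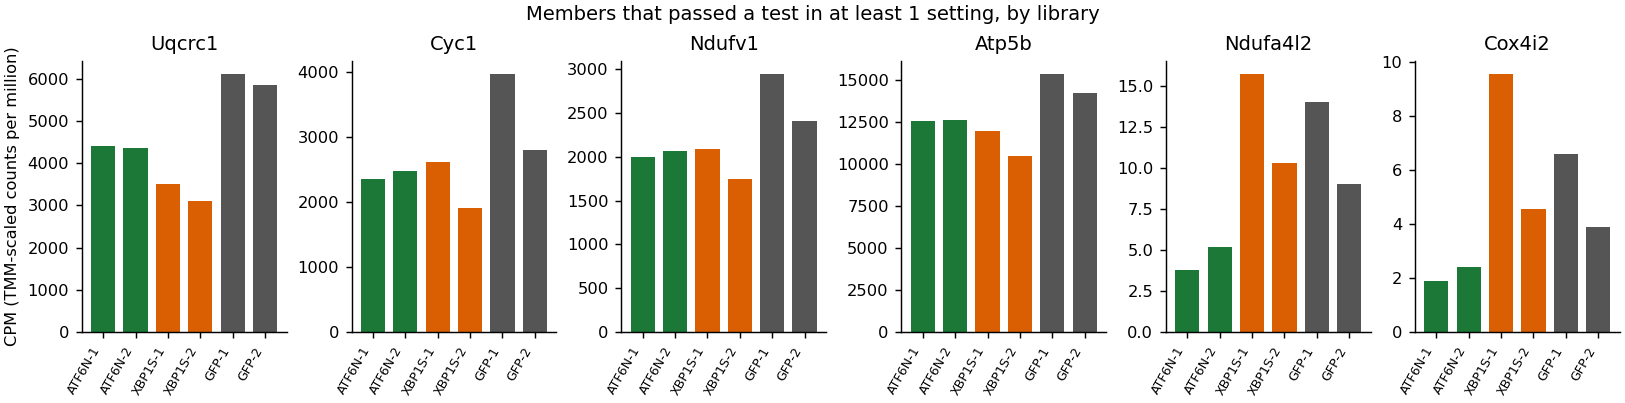
CPM (vertical axes, each from 0) of 6 subunits in each library: Uqcrc1, Cyc1, Ndufv1 and Atp5b, which were called lower in AAV-XBP1S with the length offset and without AAV-GFP replicate 1, and Ndufa4l2 and Cox4i2, which were called lower in AAV-ATF6N than in AAV-XBP1S under several settings. Both AAV-XBP1S bars of Uqcrc1 are below the other 4, and both AAV-ATF6N bars of Ndufa4l2 and Cox4i2 are below the other 4.

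The other 4 of these subunits differed less. Atp5b had 12597 and 12635 CPM in AAV-ATF6N, 11958 and 10518 CPM in AAV-XBP1S, and 15380 and 14256 CPM in AAV-GFP. Its log2 fold change in AAV-XBP1S against AAV-GFP was -0.40 ± 0.17 (edgeR adjusted p = 0.434), and -0.37 ± 0.04 with the offset and without AAV-GFP replicate 1 (edgeR adjusted p = 0.0164). Its partner in the catalytic head, Atp5a1, had 8434 and 8490 CPM in AAV-ATF6N, 6449 and 6964 CPM in AAV-XBP1S, and 9053 and 8696 CPM in AAV-GFP. Both genes had AAV-XBP1S lowest without overlap in CPM. For Atp5b this did not hold in TPM, where AAV-GFP replicate 1 was the lowest library. Cyc1, the haem-bearing cytochrome c1 of complex III, had 2356 and 2469 CPM in AAV-ATF6N, 2618 and 1907 CPM in AAV-XBP1S, and 3966 and 2791 CPM in AAV-GFP. Ndufv1, which binds NADH in complex I, had 2000 and 2066 CPM in AAV-ATF6N, 2084 and 1744 CPM in AAV-XBP1S, and 2944 and 2403 CPM in AAV-GFP. For both, AAV-XBP1S overlapped AAV-ATF6N and lay below AAV-GFP, and the values with the offset and without AAV-GFP replicate 1 were -0.46 ± 0.07 for Cyc1 and -0.41 ± 0.06 for Ndufv1 (edgeR adjusted p = 0.0263 and 0.0310). These 4 calls were made under that setting alone, and the edgeR adjusted p for Atp5a1 there was 0.0452.

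The remaining core subunits did not pass the test in AAV-XBP1S or AAV-ATF6N against AAV-GFP with the length offset, without AAV-GFP replicate 1, or with both. In complex I, the log2 fold changes of the core subunits Ndufs1, Ndufs3, Ndufs7, Ndufs8 and Ndufv2 against AAV-GFP ranged from -0.32 (Ndufs7) to 0.13 (Ndufs1) in AAV-ATF6N and from -0.27 (Ndufs1) to 0.11 (Ndufv2) in AAV-XBP1S without AAV-GFP replicate 1. In complex II, Sdhb, the iron-sulfur subunit, had 2129 and 2240 CPM in AAV-ATF6N, 2886 and 1925 CPM in AAV-XBP1S, and 3522 and 2315 CPM in AAV-GFP. AAV-ATF6N lay within the range of AAV-XBP1S and just below AAV-GFP. Sdha had 3824 and 3833 CPM in AAV-ATF6N, 2776 and 3243 CPM in AAV-XBP1S, and 2197 and 3751 CPM in AAV-GFP. It was the longest subunit of its complex and the 1 subunit called higher in AAV-ATF6N against AAV-GFP replicate 1 alone (0.81, edgeR adjusted p = 0.0358), and its value was 0.03 ± 0.17 against AAV-GFP replicate 2.

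In complex III, the Rieske iron-sulfur protein Uqcrfs1 had 1859 and 1940 CPM in AAV-ATF6N, 2015 and 1652 CPM in AAV-XBP1S, and 2342 and 1843 CPM in AAV-GFP. The other core protein, Uqcrc2, had 1307 and 1348 CPM in AAV-ATF6N, 1412 and 1172 CPM in AAV-XBP1S, and 1581 and 1318 CPM in AAV-GFP. Uqcrc2 had fold changes of 0.01 ± 0.18 in AAV-ATF6N and -0.03 ± 0.18 in AAV-XBP1S without AAV-GFP replicate 1, so the low value of Uqcrc1 in AAV-XBP1S was not seen in its paired core protein. The difference between these genes was not tested.

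Promoters of 3 of the 5 subunits called lower in AAV-XBP1S with the offset and without AAV-GFP replicate 1 are shown because XBP1S is a DNA-binding factor. The sequences are RefSeq's for build GRCm38.p6, from 250 bases before to 50 bases after the annotated start, 5′ to 3′ on the gene's strand. Capitals mark the only match of a searched motif in these 3 promoters, the palindromic consensus of nuclear respiratory factor NRF1 in Uqcrc1, at chr9:108936398-108936697 on the plus strand. Ndufv1 is at chr19:4012706-4013005 on the minus strand and Atp5b at chr10:128083057-128083356 on the plus strand.
Uqcrc1: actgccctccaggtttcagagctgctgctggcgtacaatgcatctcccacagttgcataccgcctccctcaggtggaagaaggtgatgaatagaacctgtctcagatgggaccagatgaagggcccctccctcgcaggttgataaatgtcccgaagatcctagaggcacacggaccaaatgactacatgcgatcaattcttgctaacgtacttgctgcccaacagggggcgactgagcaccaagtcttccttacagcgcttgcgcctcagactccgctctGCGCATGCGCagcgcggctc
Ndufv1: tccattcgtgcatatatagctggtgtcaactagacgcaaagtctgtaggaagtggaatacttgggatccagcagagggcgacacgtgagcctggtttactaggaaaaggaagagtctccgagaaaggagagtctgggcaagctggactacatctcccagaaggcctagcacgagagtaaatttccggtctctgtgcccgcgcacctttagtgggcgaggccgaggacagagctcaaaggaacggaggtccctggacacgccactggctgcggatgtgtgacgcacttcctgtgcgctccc
Atp5b: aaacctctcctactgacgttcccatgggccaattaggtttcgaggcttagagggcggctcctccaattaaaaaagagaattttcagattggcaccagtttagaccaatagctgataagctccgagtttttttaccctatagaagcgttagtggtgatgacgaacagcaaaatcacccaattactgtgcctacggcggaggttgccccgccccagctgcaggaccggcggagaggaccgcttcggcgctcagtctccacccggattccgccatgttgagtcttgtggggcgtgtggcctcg
A promoter was found for 68 of the 84 subunits, and the motifs were searched on both strands. The NRF1 consensus was present in 5 of 68 (7.35%), namely Atp5g2, Atp5k, Cox6a1, Ndufa11 and Uqcrc1, against 1.07% of 27025 gene promoters. The ETS and GABP core CCGGAAGT was in 5 of 68 (7.35%), against 4.31%. Neither the unfolded protein response element TGACGTGG nor the ER stress response element, CCAAT and CCACG separated by N at 9 positions, was in any of the 68, against 0.714% and 0.137% of all gene promoters. These matches describe letters in a window and say nothing of binding.

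A pair of minor paralogs, Ndufa4l2 and Cox4i2, were lower in AAV-ATF6N than in AAV-XBP1S under several of the fits. Ndufa4l2, a low-abundance relative of Ndufa4 known as a hypoxia-induced gene, had 7.56 and 10.2 TPM in AAV-ATF6N, 29.2 and 23.4 TPM in AAV-XBP1S, and 18.8 and 17.1 TPM in AAV-GFP. Both AAV-ATF6N libraries were lowest and, in TPM, both AAV-XBP1S libraries were highest. On the CPM scale AAV-XBP1S (15.7 and 10.3 CPM) and AAV-GFP (14.0 and 9.04 CPM) overlapped. In AAV-ATF6N against AAV-XBP1S its log2 fold change was -1.53 ± 0.35 (edgeR adjusted p = 0.126), and -1.53 ± 0.28 without AAV-GFP replicate 1 (edgeR adjusted p = 0.0387), where it was the 1 subunit called lower and 0 were called higher (all genes 2.79% and 1.96%). It was also the 1 subunit called lower, with 0 higher, without AAV-GFP replicate 2 (all genes 2.76% and 1.51%). With DESeq2 the adjusted p was 0.0032 and with the length offset the value was -1.25 ± 0.21 (edgeR adjusted p = 0.0338). Against AAV-GFP, AAV-ATF6N had -1.36 ± 0.35 (edgeR adjusted p = 0.220) and -1.01 ± 0.33 without AAV-GFP replicate 1 (edgeR adjusted p = 0.344). The authors' deposited table gave it a log2 fold change of -1.35 and an adjusted p of 0.0303 in AAV-ATF6N against AAV-GFP. It was the 1 subunit below 0.05 of those with an adjusted p there (0.937% of all genes lower and 1.77% higher). In AAV-XBP1S against AAV-GFP the authors' deposited table had 0 subunits below 0.05 of 82 matched symbols (0.502% of all genes lower and 0.809% higher).

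Cox4i2, the minor form of complex IV subunit 4 that is known from lung and smooth muscle, had 4.96 and 6.25 TPM in AAV-ATF6N, 23.5 and 13.8 TPM in AAV-XBP1S, and 11.7 and 9.72 TPM in AAV-GFP. The order of the groups was that of Ndufa4l2. In AAV-ATF6N against AAV-XBP1S its log2 fold change was -1.72 ± 0.45 (edgeR adjusted p = 0.171), -1.72 ± 0.39 without AAV-GFP replicate 1 (edgeR adjusted p = 0.0579) and -1.37 ± 0.27 with the length offset (edgeR adjusted p = 0.0499). In AAV-XBP1S against AAV-GFP the value was 0.43 ± 0.44 (edgeR adjusted p = 0.723). As a share of the 2 forms of subunit 4 in TPM, Cox4i2 made up 0.0742% ± 0.00996 in AAV-ATF6N, 0.212% ± 0.0386 in AAV-XBP1S and 0.107% ± 0.0125 in AAV-GFP (SD, n = 2 each). The gene remained a trace beside Cox4i1 in every library.

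Ndufa4l2 and Cox4i2 are both known from pericytes and smooth muscle cells, which a sorted cardiomyocyte sample may still hold. Summed CPM of the 5 markers of those cells was 946 and 930 in AAV-ATF6N libraries, 834 and 786 in AAV-XBP1S libraries, and 775 and 714 in AAV-GFP libraries, with all 5 present in every library and 0 called. That sum was highest in AAV-ATF6N, whereas the median log2 fold change of the 5 markers in AAV-ATF6N against AAV-XBP1S was -0.53. The 6 endothelial markers summed to 614 and 571 CPM in AAV-ATF6N, 1265 and 1432 CPM in AAV-XBP1S, and 1106 and 882 CPM in AAV-GFP, with all 6 present in every library, 0 called and a median log2 fold change of -1.09 in AAV-ATF6N against AAV-XBP1S. Endothelial markers thus followed the order of Ndufa4l2 and Cox4i2, and their part in the result was not tested. In bulk samples fewer cells of a type and less RNA per cell cannot be told apart. The 4 atrial markers summed to 2201 and 2357 CPM in AAV-ATF6N, 541 and 345 CPM in AAV-XBP1S, and 280 and 117 CPM in AAV-GFP. That sum and the median of the list went opposite ways: in AAV-ATF6N the median log2 fold change was -2.11 against AAV-GFP, with Nppa called higher and Myl7 lower, and -2.94 against AAV-XBP1S, with Myl7 called lower. The 6 fibroblast markers summed to 709 and 676 CPM in AAV-ATF6N, 706 and 828 CPM in AAV-XBP1S, and 399 and 514 CPM in AAV-GFP, with 0 called. Macrophage and leukocyte markers stayed between 13.1 and 20.3 CPM, and erythroid markers between 40.7 and 277 CPM with AAV-GFP replicate 1 the highest and 1 of them, Alas2, called lower in AAV-ATF6N against AAV-GFP.

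**Figure D5:**
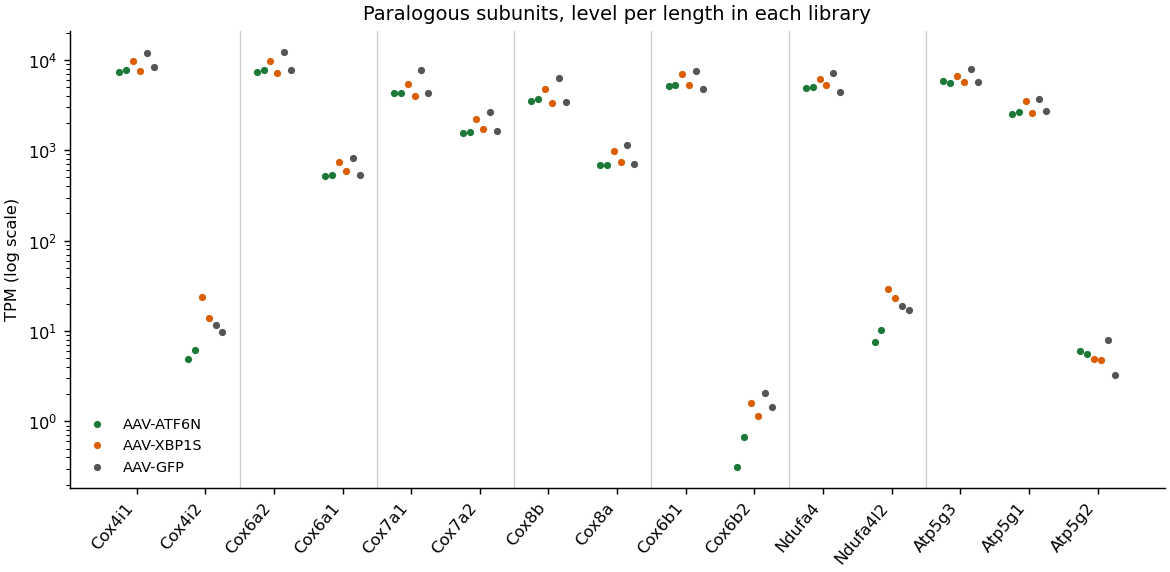
Level of paralogous subunits in TPM (vertical log axis) in each library, with replicates 1 and 2 of AAV-ATF6N, AAV-XBP1S and AAV-GFP in order from left to right for each gene. The muscle forms Cox6a2, Cox7a1 and Cox8b exceed Cox6a1, Cox7a2 and Cox8a in every library, and Cox4i2, Cox6b2, Ndufa4l2 and Atp5g2 are traces beside their main forms.

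The heart and muscle isoforms of complex IV dominated in every library. Cox6a2 had 7352 and 7683 TPM in AAV-ATF6N, 9756 and 7206 TPM in AAV-XBP1S, and 12219 and 7781 TPM in AAV-GFP. Cox6a1, the form of most tissues, made up 6.52% and 6.42% of the Cox6a pair in AAV-ATF6N libraries, 7.14% and 7.48% in AAV-XBP1S libraries, and 6.25% and 6.39% in AAV-GFP libraries. Shares of this kind moved far less between replicates than the levels did. Cox7a2 made up 25.5% to 30.1% of the Cox7a1 and Cox7a2 pair over the 6 libraries, and Cox8a made up 15.2% to 18.4% of the Cox8a and Cox8b pair. In each of these 3 pairs the highest share was that of AAV-XBP1S replicate 2. The mean share of Cox6a1 was 6.47% ± 0.0685 in AAV-ATF6N, 7.31% ± 0.243 in AAV-XBP1S and 6.32% ± 0.102 in AAV-GFP (SD, n = 2 each). The AAV-XBP1S libraries thus lay above the other 4 for Cox6a1, by less than a percentage point. The same held for Cox7a2 beside Cox7a1, with 29.2% and 30.1% in AAV-XBP1S and at most 27.8% in the other 4. For Cox8a, AAV-XBP1S overlapped AAV-GFP. No test was run on shares. For the c subunit of the ATP synthase rotor, which several genes encode as an identical mature protein, Atp5g1 made up 30.5% to 34.7% of Atp5g1 and Atp5g3 together, and Atp5g2 stayed between 3.29 and 7.93 TPM.

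Cox6b2, a testis form of its subunit, had 0.314 and 0.670 TPM in AAV-ATF6N, 1.59 and 1.16 TPM in AAV-XBP1S, and 2.04 and 1.44 TPM in AAV-GFP. Its log2 fold change of -2.20 ± 0.80 in AAV-ATF6N against AAV-GFP was the lowest of all subunits (edgeR adjusted p = 0.343), at a level that counting error affects. In AAV-ATF6N against AAV-XBP1S the value of Cox6b2 was -1.46 ± 0.80 (edgeR adjusted p = 0.491). Of the 3 subunits that were not tested, the testis form Cox8c was at 0 counts in all 6 libraries, and Cox7b2, another testis form, had 3 and 9 counts in AAV-ATF6N, 4 and 4 counts in AAV-XBP1S, and 10 and 8 counts in AAV-GFP. Ndufs5, an accessory subunit of complex I, had 0 and 0 counts in AAV-ATF6N, 0 and 0 counts in AAV-XBP1S, and 2 and 0 counts in AAV-GFP. How reads that match several places in the genome were counted is not given in the sources used here, so the levels of subunits with close copies elsewhere in the genome are uncertain.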

How the data were processed

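RNA of sorted mouse cardiomyocytes was measured in 6 libraries, 2 each with AAV-ATF6N, AAV-XBP1S and AAV-GFP. The deposited gene table holds the authors' raw counts per gene with gene lengths. The deposited comparison tables hold the authors' log2 fold changes and adjusted p-values. STAR, featureCounts, DESeq2 and build mm10 are named in the submitters' processing notes, without versions. Counts were tested with edgeR 4.0.16 in R 4.3.3 (TMM factors, filterByExpr with a count minimum of 10, quasi-likelihood test with group as the only term over all 6 libraries, Benjamini-Hochberg adjustment over 14587 genes, threshold 0.05, two-sided). With 3 residual and 3.73 prior degrees of freedom the common dispersion was 0.0921. Standard errors are the log2 fold change over the square root of F. The length offset is a lowess curve (span 0.3) of each library's log2 CPM deviation on log2 gene length. Alternatives were RLE factors, DESeq2 1.42.0, no count filter, fits on the 2 groups compared, a replicate block, the offset, and leaving out each library. The fitting code was tested on simulated data. Group members and gene lists were chosen with earlier results of these data known. Named genes are the catalytic core, isoform sets, the extremes of each complex in each comparison, the most abundant members of each complex, and subunits called under any setting. No set test was run. Intervals and SEs cover these libraries only. Counts of molecules are not separable from PCR copies. The individual values of 1 subunit are not reported here.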

Additional observations from a re-analysis of the deposited data

How the results depend on the processing

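RLE factors left the calls and medians of the subunits in place. Subunits called lower in AAV-ATF6N against AAV-GFP numbered 0, and 1 with DESeq2 and 1 with no filter on low counts (0.662% of all genes). Leaving out 1 library at a time gave 0 to 61 lower and 0 to 1 higher, with medians of -1.14 to -0.0652, all 61 without AAV-GFP replicate 2. The median was -0.077 with the length offset, -0.0248 with the offset and without AAV-GFP replicate 1, and -0.0654 without AAV-GFP replicate 1 and AAV-XBP1S replicate 1 (an alternative chosen after seeing the data). In AAV-XBP1S against AAV-GFP, 1 was called lower with DESeq2, 1 with the offset and 5 with the offset and without AAV-GFP replicate 1. Leaving out 1 library gave 0 to 4 lower and medians of -0.925 to 0.107. In AAV-ATF6N against AAV-XBP1S, 2 were called lower with DESeq2, 2 with no filter (1.54% of all genes), 1 with only the 2 groups compared (2.71%), 2 with the offset and 2 with the offset and without AAV-GFP replicate 1. There, 1 was called higher with the offset and 10 with the offset and without AAV-GFP replicate 1. Leaving out 1 library gave 0 to 1 lower and medians of -0.44 to 0.14. The median was 0.14 with the offset and 0.18 without AAV-GFP replicate 1 and AAV-XBP1S replicate 1. Atp5g3 turned to 0.24 with the offset and without AAV-GFP replicate 1, against -0.07, in AAV-ATF6N against AAV-XBP1S. Where the setting itself leaves out a library or a length trend, that is what differs, and otherwise the cause was not tested.

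Replicate numbers did not pair the libraries across all groups: correlations of the deviations of same-numbered libraries from their group means were -0.05 for AAV-ATF6N with AAV-XBP1S, -0.04 for AAV-ATF6N with AAV-GFP and 0.38 for AAV-XBP1S with AAV-GFP. The deviations in AAV-XBP1S and AAV-GFP thus ran partly together, which the main fit, with group as its only term, leaves out. With the replicate block 1 subunit was called lower in AAV-ATF6N against AAV-XBP1S (1.45% of all genes) and 0 in the other comparisons. Over all genes the edgeR calls of AAV-XBP1S against AAV-GFP, 26 higher and 20 lower, became 92 and 73 with the block. Cox7b2, Cox8c and Ndufs5 had too few counts to be tested.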
